A study of Mus musculus with 12 samples.

Results

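The Runx and Ikaros transcription factor families were followed in mouse spleen: Runx1, Runx2 and Runx3, their shared partner Cbfb, and Ikzf1 to Ikzf5. The 9 genes were chosen by symbol from 32121 genes in the count table, all 9 were found, and all 9 passed the filter on low counts in every test. Spleens came from 6 mice on C57BL/6, and 2 pieces of each were sequenced, giving 12 unstranded poly-A libraries. In 3 mice, called SB animals 1 to 3, the genotype was VEC-Cre, SB Transposase and onc2: a Cre used for endothelium, the transposase of the Sleeping Beauty system, which cuts transposons out and inserts them elsewhere, and a mutagenic transposon for it to move. The other 3 mice, called controls, were labelled WT, so the effects of the 3 introduced alleles cannot be told apart. Cre driven from the VE-cadherin promoter is known to be active also in the embryonic endothelium that gives rise to blood cells. The labels give no ages, and no label ties an SB animal to a control animal. The stated purpose was to ask whether each spleen behaved as 1 clone, by setting its pieces side by side.

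Runx proteins bind DNA through the Runt domain, and Cbfb, which does not bind DNA itself, pairs with each of them and strengthens that binding. Runx1 is needed for blood stem cells to arise and for megakaryocytes to mature, Runx2 is the master regulator of bone-forming cells, and Runx3 acts in cytotoxic T cells and natural killer cells. Ikaros proteins bind DNA by zinc fingers, pair with one another, and bring the NuRD chromatin remodelling complex to lymphoid genes. Ikzf1 (Ikaros) is needed for lymphocytes to form, Ikzf3 (Aiolos) is a B cell and plasma cell factor, Ikzf2 (Helios) and Ikzf4 (Eos) are known from regulatory T cells, and Ikzf5 (Pegasus) is the least studied of the group.

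On the GRCm38 build, with GENCODE annotation, all 9 are protein-coding genes. The Runx genes lie on chromosome 16 (Runx1, ENSMUSG00000022952, chr16:92601466-92826149, minus strand), chromosome 17 (Runx2, ENSMUSG00000039153, chr17:44495987-44814797, minus) and chromosome 4 (Runx3, ENSMUSG00000070691, chr4:135120652-135177990, plus). Cbfb (ENSMUSG00000031885) lies at chr8:105170674-105217989, plus strand. Ikzf1 (ENSMUSG00000018654, chr11:11685003-11772926, plus) and Ikzf3 (ENSMUSG00000018168, chr11:98464902-98546031, minus) share chromosome 11. Ikzf2 (ENSMUSG00000025997) lies at chr1:69531214-69687245, Ikzf4 (ENSMUSG00000002578) at chr10:128630843-128645991 and Ikzf5 (ENSMUSG00000040167) at chr7:131388652-131410521, all on the minus strand. Exons of Pstk on the opposite strand covered 81.31% of the exon bases of Ikzf5. Libraries without strand cannot tell these 2 genes apart, and Pstk had 3812 counts in all libraries against 1163 for Ikzf5, so every Ikzf5 value below is uncertain. The next largest overlap was Runx2os1 with 5.87% of the Runx2 exon bases and 11 counts.

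The promoters of the 3 Runx genes are shown because these genes had different patterns in the SB spleens and because Runx genes are known to start from more than 1 promoter. Each run holds the 250 bases before a start site in RefSeq on GRCm38.p6, read 5′ to 3′ along the gene. Capitals mark the core letters of a Runx site (TGTGGT, or ACCACA on the other strand) or of an Ikaros site (TGGGAA, or TTCCCA). Of 32851 mouse promoters of that length, 14.05% held the Runx letters and 21.6% the Ikaros letters, on either strand. No match to one of these motifs overlapped a match to another in the runs below.
Runx1, first promoter, chr16:92826075-92826324, minus strand: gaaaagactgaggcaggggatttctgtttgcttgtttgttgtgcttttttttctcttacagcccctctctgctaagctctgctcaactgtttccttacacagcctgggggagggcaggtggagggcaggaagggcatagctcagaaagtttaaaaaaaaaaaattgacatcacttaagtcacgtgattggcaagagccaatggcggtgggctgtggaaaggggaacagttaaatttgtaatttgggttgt
Runx1, second promoter, chr16:92697330-92697579, minus strand: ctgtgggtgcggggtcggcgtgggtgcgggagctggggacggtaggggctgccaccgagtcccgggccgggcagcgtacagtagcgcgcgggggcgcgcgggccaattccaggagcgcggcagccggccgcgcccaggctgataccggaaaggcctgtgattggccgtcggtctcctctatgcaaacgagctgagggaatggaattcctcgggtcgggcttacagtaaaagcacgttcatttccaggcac
Runx2, chr17:44814628-44814877, minus strand: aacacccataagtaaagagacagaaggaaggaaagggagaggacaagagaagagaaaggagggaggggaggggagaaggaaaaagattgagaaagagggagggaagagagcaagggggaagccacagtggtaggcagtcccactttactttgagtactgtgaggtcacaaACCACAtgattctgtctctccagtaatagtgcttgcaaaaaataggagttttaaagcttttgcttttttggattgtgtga
Runx3, first promoter, chr4:135120395-135120644, plus strand: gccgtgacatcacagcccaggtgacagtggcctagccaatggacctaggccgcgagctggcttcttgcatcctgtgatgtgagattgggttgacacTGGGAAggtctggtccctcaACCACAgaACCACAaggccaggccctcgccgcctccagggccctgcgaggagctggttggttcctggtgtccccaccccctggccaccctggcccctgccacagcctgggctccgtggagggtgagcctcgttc
Runx3, second promoter, chr4:135152295-135152544, plus strand: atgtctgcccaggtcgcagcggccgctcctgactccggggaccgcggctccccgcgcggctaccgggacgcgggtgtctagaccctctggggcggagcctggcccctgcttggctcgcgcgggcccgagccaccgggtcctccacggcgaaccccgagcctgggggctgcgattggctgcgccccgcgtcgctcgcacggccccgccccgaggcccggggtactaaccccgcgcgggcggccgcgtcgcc

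In the first Runx3 promoter the Runx letters occurred at −134 and −126 and the Ikaros letters at −154, counted in bases from the start site. In the Runx2 promoter the Runx letters occurred once, at −80. Neither Runx1 promoter nor the second Runx3 promoter held either motif, and the second Runx1 promoter held the Ets core letters CCGGAA at −106, a motif (with TTCCGG) found in 12.03% of all promoters. Both RefSeq promoters of Ikzf1 and those of Cbfb and Ikzf5 held neither the Runx nor the Ikaros letters in their 250 bases. RefSeq entries matched 6 of the 9 members, with 9 promoters, and Ikzf2, Ikzf3 and Ikzf4 were not matched. A match is a run of letters, and counts per gene do not tell which start site was used.

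Libraries held 14320833 to 22031026 counts, with 22268 to 23767 genes detected. In edgeR's quasi-likelihood test, 17.1% of 17328 genes tested were called between SB and control animals at a Benjamini-Hochberg adjusted p under 0.05, which is the threshold used throughout; 7.99% were higher in SB and 9.1% lower. Levels below are CPM, counts scaled to a common library size with TMM factors, and the value of an animal is from both its pieces together. RNA from the X chromosome gene Xist was at 2268 CPM (SB animal 1) and 1000 CPM (SB animal 2), and at 1.48 to 2.43 CPM in SB animal 3 and the controls. RNA from the Y chromosome gene Ddx3y was at 95.9 CPM in SB animal 3 and 60.6 to 75.9 CPM in the controls, and at most 0.255 CPM in SB animals 1 and 2. RNA from these sex chromosome genes thus set SB animals 1 and 2 apart from SB animal 3 and the controls. Each called member is therefore also given below with SB animal 3 alone against the controls. Spic, the factor of the macrophages that mark splenic red pulp, was at 12.9 to 141 CPM in SB and 89.7 to 104 CPM in control animals. Cell type markers were set beside the members. All 10 B cell markers and 8 of 12 T cell markers were lower in SB spleens, 8 of 10 proliferation markers were higher (1 to 4 of them with any 1 control left out), and none of these markers was at 0 in any animal. With 1 animal left out, the count of all genes called ranged from 253 to 6174, in place of 2961. Counts of list genes called in those fits, here and below, are to be read beside that range.

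Of the 9 members, 3 passed the test between genotypes: Runx1 was higher in SB spleens, and Ikzf1 and Ikzf3 were lower. In all genes the called share was 17.1%. The SB and control libraries did not overlap for 4 of 9 members, against 29.6% of all genes tested. The fourth was Runx2, which did not pass the test. The median log2 difference of the 9 members was −0.02, and that of all genes tested was 0.11. Calls for all 3 members held with any 1 SB animal left out, and none of the 3 held with any 1 control left out, where directions stayed the same.

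**Figure D1:**
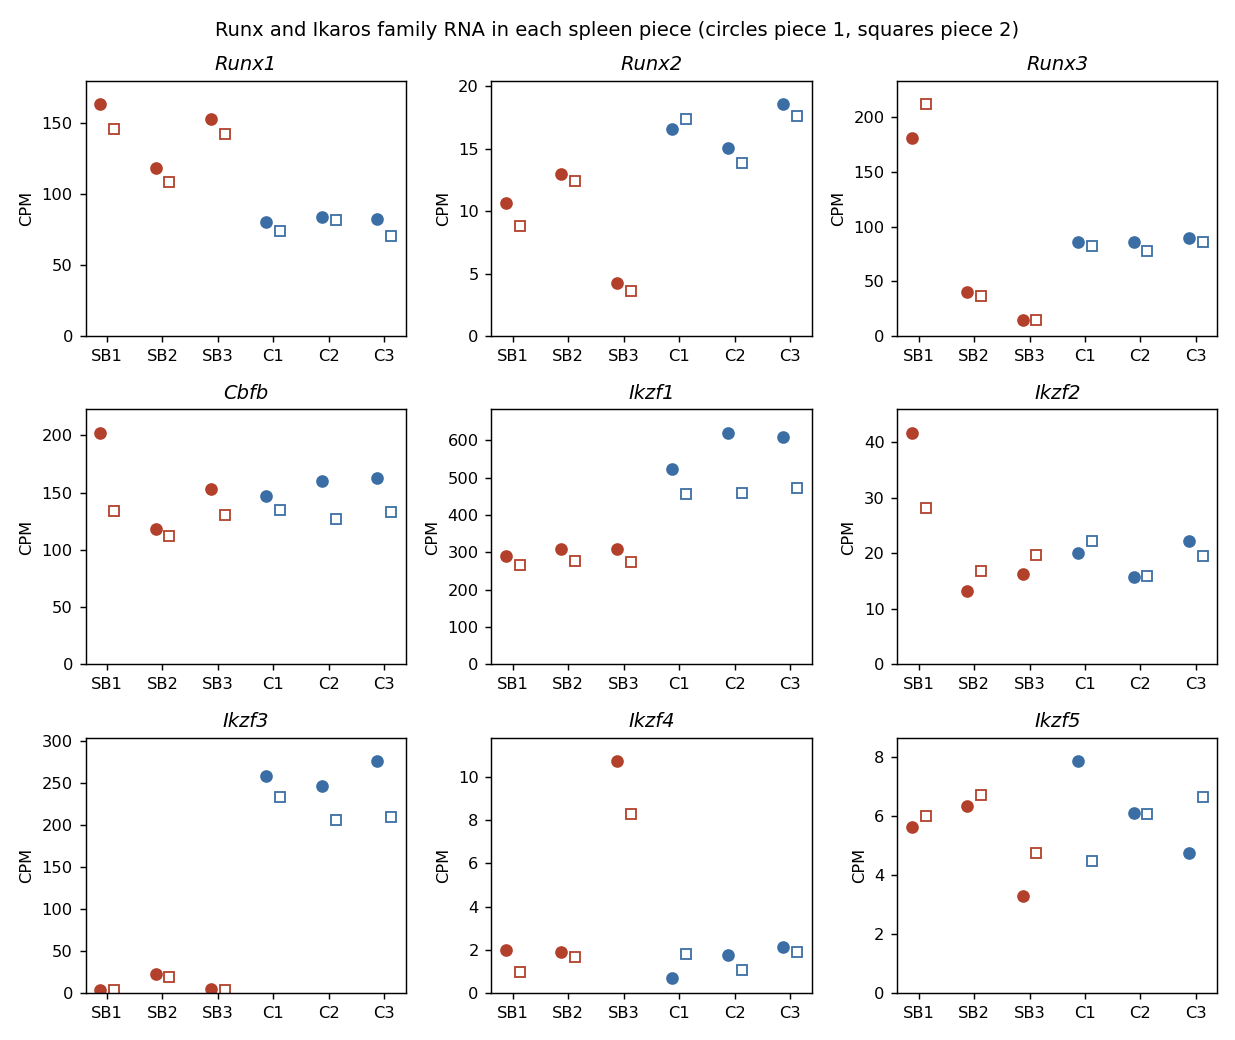
Level of each of the 9 genes in every library, in CPM on a linear axis from 0 (each panel has its own scale), for SB animals 1 to 3 (SB1 to SB3, red) and control animals 1 to 3 (C1 to C3, blue), with filled circles for piece 1 and open squares for piece 2. Runx1 was higher and Runx2, Ikzf1 and Ikzf3 were lower in all SB libraries than in any control library, while Runx3 lay above the controls in SB animal 1 and below them in SB animals 2 and 3.

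Runx1 RNA was 1.78 times the control level in SB spleens. Its level was 155.3 CPM in SB animal 1, 112.5 in SB animal 2 and 149.5 in SB animal 3. In controls it was 76.3, 81.7 and 76.4 CPM. The lowest SB animal was above the highest control, and so was every SB piece. The means were 139 ± 23.2 CPM (SD, n = 3) and 78.1 ± 3.07 CPM (SD, n = 3), with a log2 difference of 0.83 (SE 0.17, edgeR quasi-likelihood adjusted p = 0.0272). Without control 1, 2 or 3 the adjusted p was 0.140, 0.131 and 0.149, and without the TMM factors it was 0.0598. With SB animal 3 alone against the controls the log2 difference was 0.93.

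Some markers of blood lineages in which Runx1 is known to act were also called higher. Summed levels of 5 promyelocyte markers were 350 to 613 CPM in SB and 12.1 to 62.2 CPM in control animals, and 4 of the 5 were called higher. The 10 megakaryocyte markers summed to 1515 to 5709 CPM in SB and 369 to 864 CPM in controls, with 2 called higher. The 10 erythroid markers summed to 1676 to 11574 CPM and 1320 to 3452 CPM, ranges that overlap, with 4 called higher. The 8 stem and progenitor markers summed to 222 to 1296 CPM in SB and 350 to 448 CPM in controls, with 0 called higher and 1 lower, Mecom, and with 3 higher and 3 lower without SB animal 2. The 8 endothelial markers summed to 647 to 992 CPM and 584 to 638 CPM, with 3 called higher and 1 lower. Of 10 neutrophil markers, 0 passed the test, and 7 were called higher without SB animal 1. With 1 control left out, at most 1 promyelocyte marker and 0 of the megakaryocyte, erythroid and endothelial markers were called, and without SB animal 3 the calls were 0 for megakaryocyte and 1 for erythroid markers. The part of these cell types in the Runx1 difference was not tested, and in whole tissue a change in the number of cells of a type and a change in RNA per cell cannot be told apart.

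Runx2, known best from bone, was at a low level in spleen and lower still in SB animals. It was at 9.82, 12.7 and 3.998 CPM in SB animals 1 to 3 and at 16.9, 14.3 and 18.0 CPM in controls. No SB library reached the lowest control library, but the highest SB animal held 3.17 times the lowest. The log2 difference of −0.89 (SE 0.45) had an adjusted p of 0.211 in edgeR's quasi-likelihood test. limma voom on all 12 libraries with the animal as a random block gave −1.11 and an adjusted p of 0.0302. Of 14 alternatives, 2 called Runx2, this fit among them, and all 14 had it lower in SB. The other fit that called it was SB animal 3 alone against the controls, which holds no spread among SB animals. With 1 animal left out the log2 difference ranged from −1.25 to −0.54. Of 7 bone and stroma markers tested, 2 were called higher, Sparc (log2 difference 1.16) and Pdgfrb (0.87). Called lower was 1, Alpl (−2.73), an enzyme of mineralising cells. Of 6 fits that leave out 1 animal, Sparc and Alpl were called in 3 and Pdgfrb in 2, and none of them without a control.

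Runx3 had the widest spread of all 9 members among SB animals and lay on both sides of the controls in them. Its level was 195.9 CPM in SB animal 1, 38.2 in SB animal 2 and 14.8 in SB animal 3. The controls held 83.5, 80.9 and 87.3 CPM. SB animal 1 was thus at 2.33 times the control mean, and SB animals 2 and 3 were at 0.456 and 0.176 times it. The means of the genotypes were 83.0 ± 98.5 and 83.9 ± 3.23 CPM (SD, n = 3 each), and the log2 difference was −0.02 (SE 0.88, edgeR adjusted p = 0.992). Without SB animal 1 it was −1.66 (adjusted p = 0.0538), and without SB animal 2 or 3 it was 0.32 or 0.48.

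In SB animal 1, Runx3 was high while T cell and natural killer cell markers were low. The median T cell marker there was at −5.07 on the log2 scale against the control mean, and at −2.66 and −5.59 in SB animals 2 and 3. For 9 natural killer cell markers the medians were −2.22, −0.38 and −2.86 in SB animals 1 to 3, 0 of the 9 passed the test in either direction, and Klra8 was at 0 in SB animal 3. Without SB animal 2, 5 of the 9 were called lower. Stem and progenitor markers had their highest sum in SB animal 1, at 1296 CPM against 222 and 358 CPM in SB animals 2 and 3. The genes of that list did not move together there. Gata2, Meis1, Cd34 and Kit were above all controls in SB animal 1, at 460, 349, 284 and 170 CPM. Ly6a, Hlf and Mecom were below all controls, at 19.5, 0.397 and 1.53 CPM, and Procr was within their range. Whether any of these cells carried the Runx3 RNA was not tested.

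Cbfb, the partner that all 3 Runx proteins share, was close in level in the 2 genotypes. It was at 171.6, 115.2 and 144.1 CPM in SB animals 1 to 3 and at 139.5, 142.2 and 148.6 CPM in controls. SB animal 1 was above and SB animal 2 below all controls. The log2 difference was 0.00 (SE 0.18, edgeR adjusted p = 0.995), and its sign changed between settings.

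**Figure D2:**
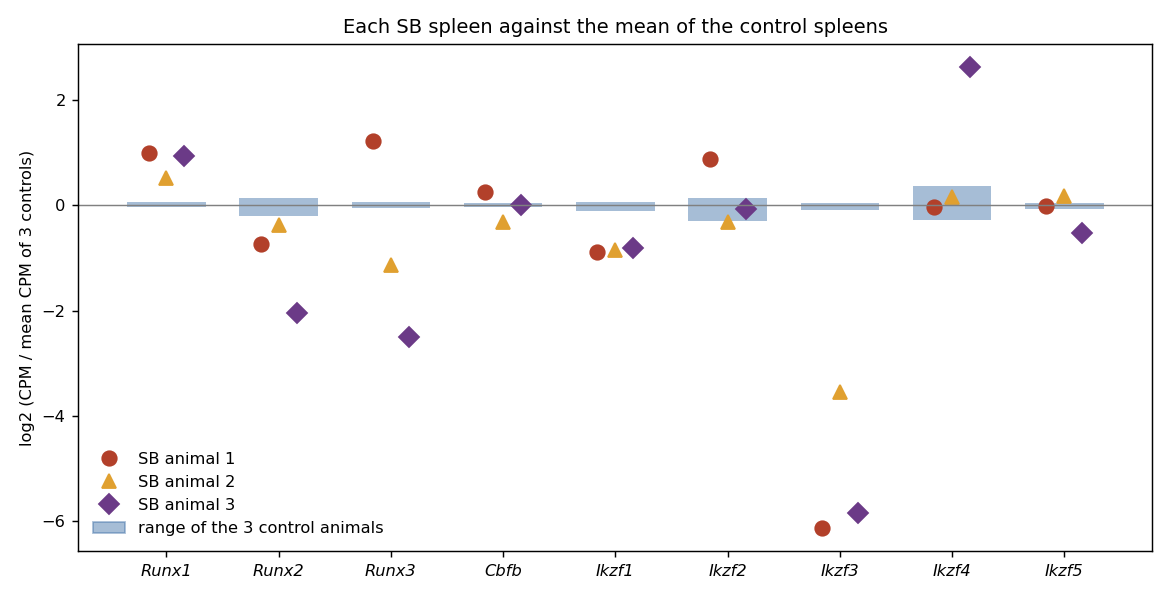
Level of each gene in SB animals 1 to 3 as the log2 ratio to the mean CPM of the 3 controls (vertical axis), with the range of the 3 control animals as a blue bar and the control mean as the line at 0. Runx1, Runx2, Ikzf1 and Ikzf3 lay on 1 side of the control range in all 3 SB animals, Runx3, Cbfb, Ikzf2 and Ikzf5 had SB animals on both sides of it, and Ikzf4 left it in SB animal 3 alone on the higher side.

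Ikzf1, the founding member of the Ikaros family, was at 0.555 times the control level in SB spleens. It was at 280.0, 290.8 and 295.7 CPM in SB animals 1 to 3 and at 484.0, 534.8 and 543.6 CPM in controls. The SB animals lay close together and all below the lowest control. The means were 289 ± 8.02 and 521 ± 32.2 CPM (SD, n = 3 each), and the log2 difference was −0.85 (SE 0.15, edgeR quasi-likelihood adjusted p = 0.0189). Leaving out control 1, 2 or 3 gave an adjusted p of 0.0916, 0.118 and 0.118. SB animal 3 alone against the controls gave −0.83.

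Ikzf3, the B cell and plasma cell member, fell the most of the 9. SB animals 1, 2 and 3 held 3.40, 20.5 and 4.12 CPM, and controls held 243.8, 224.4 and 245.4 CPM. Every SB library was far below every control library, and SB animal 2 held the most of the 3 SB animals. The control mean, 238 ± 11.7 CPM, was 25.5 times the SB mean of 9.33 ± 9.66 CPM (SD, n = 3 each). The log2 difference was −4.67 (SE 0.82, edgeR quasi-likelihood adjusted p = 0.0176). It was −5.98 without SB animal 2 and −5.86 with SB animal 3 alone. Leaving out a control gave adjusted p of 0.0714 to 0.0785.

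Lymphoid markers moved with both genes. The 10 B cell markers summed to 68.7 to 161 CPM in SB animals and 8515 to 9505 CPM in controls, with a median log2 difference of −6.73. The 12 T cell markers summed to 29.8 to 163 CPM and 1033 to 1195 CPM, with a median of −3.87. The 7 plasma cell markers summed to 278 to 828 CPM and 1787 to 2676 CPM, with a median of −2.99 and 2 called lower. SB animal 2 held the most B, T and plasma cell marker RNA of the 3 SB animals and also the most Ikzf3, whereas Ikzf1 in it was like that of the others. The part of lymphocyte number in the Ikzf1 and Ikzf3 differences was not tested. Without any 1 control, 8 of the 10 B cell markers, 3 of the 12 T cell markers and 0 of the 7 plasma cell markers were called lower. Without SB animal 2, 12 T cell and 5 plasma cell markers were called lower, and without SB animal 1 or 3 the counts were 4 and 1. The count of all genes called also moved in fits without 1 animal, from 253 to 6174.

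Ikzf2, Ikzf4 and Ikzf5 did not pass the test between genotypes. Ikzf2 was at 35.6, 15.4 and 18.2 CPM in SB animals 1 to 3 and at 21.1, 15.7 and 20.8 CPM in controls. SB animal 1 stood above all controls, and the log2 difference was 0.26 (SE 0.37, edgeR adjusted p = 0.652). Ikzf4 was the lowest of the family in controls, at 1.29, 1.39 and 2.02 CPM, and SB animals 1 and 2 were near that at 1.53 and 1.75 CPM. SB animal 3 held 9.69 CPM, with 231 and 169 counts in its pieces against at most 40 in any other library. The log2 difference of 1.46 (SE 0.81, edgeR adjusted p = 0.254) became 0.07 without SB animal 3. Ikzf5 was at 5.82, 6.59 and 4.07 CPM in SB animals and 5.55 to 6.03 CPM in controls, with a log2 difference of −0.09 (SE 0.31, edgeR adjusted p = 0.858).

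The regulatory T cell markers were set beside Ikzf2 and Ikzf4. These 6 genes summed to 22.8 to 56.9 CPM in SB animals and 101 to 122 CPM in controls, with a median log2 difference of −1.68 and 0 called. Called lower were 4 of the 6 without SB animal 2, 2 without SB animal 3, and 6 with limma voom on 12 libraries. Their median against the control mean was −1.999 in SB animal 1, where Ikzf2 was highest, and −3.73 in SB animal 3, where Ikzf4 was highest. Foxp3, the defining factor of these cells, was at 1.08 CPM in SB animal 1 and 0.51 CPM in SB animal 3, against 12.9 to 17.3 CPM in controls. The marker sum was below the controls in all 3 SB animals. Ikzf2 was above the controls in SB animal 1 alone, and Ikzf4 in SB animal 3 alone. Whether regulatory T cells carried the Ikzf2 or Ikzf4 RNA was not tested.

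Levels of different genes can be compared once divided by exon length, and CPM per kilobase of exon bases was used for that. In controls Ikzf1 was highest at 90.1 ± 5.57, followed by Cbfb at 41.2 ± 1.35, Ikzf3 at 27.2 ± 1.34, Runx3 at 16.8 ± 0.645 and Runx1 at 6.50 ± 0.255 CPM per kilobase (SD, n = 3 each). Runx2 at 1.86 ± 0.212 and Ikzf2 at 1.66 ± 0.261 CPM per kilobase were within their spread of each other, and Ikzf5 at 1.02 ± 0.0460 and Ikzf4 at 0.262 ± 0.0656 were lowest. In SB animals Ikzf1 was again highest at 50.0 ± 1.39 and Cbfb next at 41.3 ± 8.10 CPM per kilobase. Ikzf3, the third in controls, was at 1.07 ± 1.103 CPM per kilobase in SB animals, within the spread of Ikzf2, Runx2, Ikzf5 and Ikzf4. Runx3 at 16.6 ± 19.7 and Runx1 at 11.6 ± 1.93 CPM per kilobase did not differ beyond their spread in SB animals.

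The make-up of each family was described by the share of each member in the family's summed CPM per kilobase. In controls Runx3 made up 66.7 ± 0.890% of Runx RNA, Runx1 25.9 ± 1.57% and Runx2 7.38 ± 0.686% (SD, n = 3 each). SB animal 1 had 73.6% Runx3, 24.3% Runx1 and 2.09% Runx2, with Runx3 above and Runx1 and Runx2 below the controls. SB animal 2 had 41.5% Runx3 and 50.8% Runx1. SB animal 3 had the order turned round, with 18.6% Runx3 and 78.5% Runx1. The Runx sum was 53.2, 18.4 and 15.8 CPM per kilobase in SB animals 1 to 3 and 24.6 to 25.8 in controls. Cbfb divided by that sum was 0.927, 1.80 and 2.61 in SB animals 1 to 3 and 1.61 to 1.66 in controls. No Runx share passed a two-sided exact permutation test over animals (p = 0.4, 0.3 and 0.4 for Runx1, Runx2 and Runx3), in which the smallest p that 3 against 3 allows is 0.1.

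In the Ikaros family each share lay outside the range of the controls in all 3 SB animals. Ikzf1 was 91.1, 90.8 and 92.1% of Ikaros family RNA in SB animals 1 to 3 and 74.9 ± 1.80% in controls. Ikzf3 was 0.731, 4.22 and 0.847% in SB animals and 22.6 ± 1.55% in controls. Ikzf2, Ikzf4 and Ikzf5 each took a larger share in every SB animal than in any control, with Ikzf2 at 2.39 to 5.76% against 1.38 ± 0.237% and Ikzf4 at 0.480 to 2.91% against 0.216 ± 0.0455%. Their levels in CPM did not rise in every SB animal. Ikzf2 was above the controls in SB animal 1 alone, Ikzf4 in SB animal 3 alone and Ikzf5 in SB animal 2 alone. The family sum was 53.2, 55.5 and 55.6 CPM per kilobase in SB animals and 114.7, 120.8 and 125.2 in controls. The ratio of Ikzf1 to Ikzf3 was 125, 21.5 and 109 in SB animals and 3.01 to 3.61 in controls. Each of the 5 shares gave p = 0.1 in the exact permutation test, the smallest it can give, and 0.16 after Benjamini-Hochberg adjustment over the 8 shares of both families. Shares of 1 family sum to the whole, so these tests are not independent of each other.

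**Figure D3:**
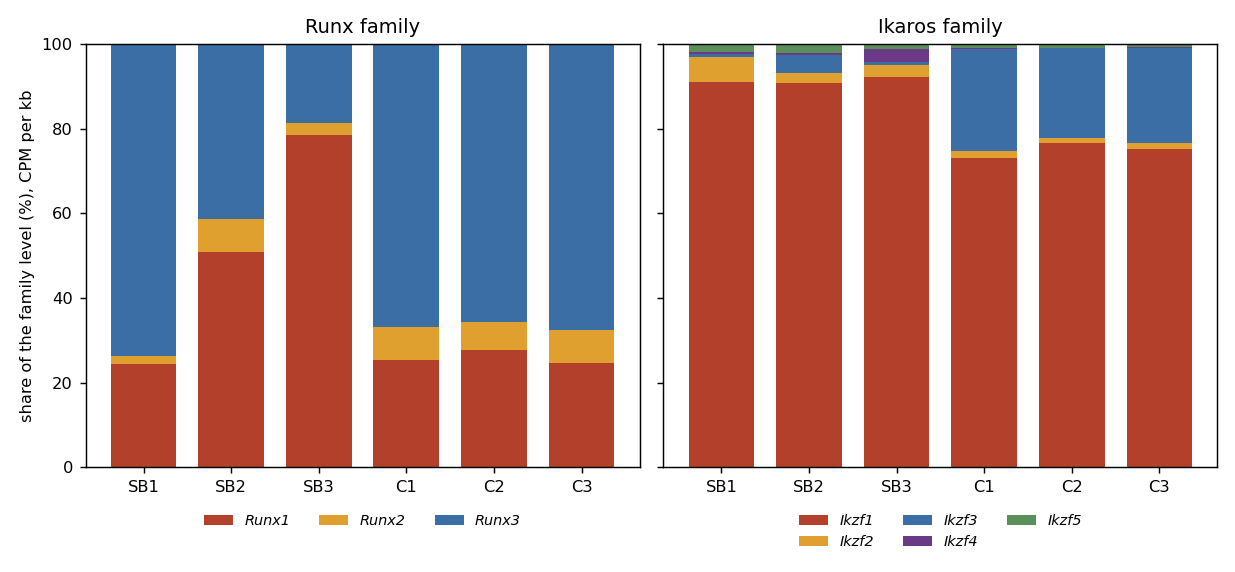
Share of each member in the summed level of its family (percent of CPM per kilobase of exons, vertical axis) in SB animals 1 to 3 and controls 1 to 3, with the Runx genes on the left and the Ikaros genes on the right. Runx1 takes 24.3% of the SB animal 1 bar and 78.5% of the SB animal 3 bar, and Ikzf3 takes 22.6% on average in controls and 0.731 to 4.22% in SB animals.

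The members' levels were also compared among animals of 1 genotype. In an F test on the 12 libraries with 1 coefficient per animal, 6 of 9 members differed among the 3 SB animals, beside 72.8% of 15523 genes tested. For the 3 controls 0 of 9 did, beside 0.335% of genes. The error here is the spread between pieces of a spleen, so these p-values compare these spleens only. Over 11808 genes averaging 5 CPM or more, the highest animal held 1.88 times the lowest among SB animals and 1.12 times among controls, as medians. Runx3 spanned 13.3-fold among SB animals (edgeR F test adjusted p = 6.67e-10) and Ikzf3 6.01-fold (adjusted p = 3.23e-07), and both are far above that median. Ikzf1 spanned 1.06-fold among SB animals (adjusted p = 0.904), below the median and below its own 1.12-fold among controls.

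Between SB animals 1 and 2, 5 of 9 members differed, beside 58.8% of all genes. Runx3 was higher in animal 1 by 2.36 on the log2 scale (SE 0.12) and Ikzf2 by 1.21 (SE 0.20), and Ikzf3 was lower by a log2 difference of −2.60 (SE 0.21). Between SB animals 1 and 3, 4 of 9 differed, beside 49.5% of all genes. Runx3 was higher in animal 1 by 3.75 (SE 0.13, adjusted p = 1.25e-09 in edgeR's quasi-likelihood test), and Ikzf4 differed by −2.66 (SE 0.43). Between SB animals 2 and 3, 5 of 9 differed, beside 53.6% of all genes, and Runx2, Runx3 and Ikzf3 were all higher in animal 2, by 1.69, 1.40 and 2.35.

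No member passed the test between the 2 pieces of a spleen. With the animal as a block, 0 of 9 members passed the edgeR test between pieces, beside 2.16% of 15523 genes. At an unadjusted p under 0.05 there were 4 of 9 members and 3757 of 15523 genes. Ikzf1 and Cbfb came nearest. Ikzf1 was lower in piece 2 in 6 of 6 spleens (log2 difference −0.24, SE 0.06, edgeR adjusted p = 0.0548), and so was Cbfb (−0.27, SE 0.07, adjusted p = 0.0548). DESeq2 called 2 members, and more genes in all than edgeR did, as counted in the last section. No member had a piece difference that differed between genotypes in the interaction test of edgeR, with 0 called, adjusted p of 0.371 to 0.997, and 0 at an unadjusted p under 0.05. Of all genes 1.28% were called there, and 2799 of 15523 had an unadjusted p under 0.05. Piece 1 and piece 2 carry no stated position, and sections A and B of controls were taken as pieces 1 and 2.

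Of 15 genes of Runx cofactors tested, 1 was called higher and 3 lower in SB, beside 17.1% of all genes called, with a median log2 difference of −0.13 against 0.11 for all genes. Hipk2, a kinase that phosphorylates Runx1 and its coactivator, was at 27.9, 44.8 and 69.8 CPM in SB animals 1 to 3 and 10.9 to 11.1 CPM in controls (log2 difference 2.11, SE 0.36, edgeR adjusted p = 0.0162). Kmt2a, the histone methyltransferase MLL, was at 105 to 115 CPM in SB and 241 to 281 CPM in control animals (−1.22, SE 0.15, adjusted p = 0.00737). Tle4, a Groucho corepressor, and Crebbp, a histone acetyltransferase, differed by −0.86 and −0.70. The other Tle genes, Ep300, Sin3a and the Runx1t1 family did not pass the test. Without any 1 control 0 of the 15 were called, and without SB animal 2 the count was 3 higher and 4 lower.

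Of 17 NuRD and corepressor genes, the chromatin partners of Ikaros proteins, 1 was called higher and 1 lower, beside 17.1% of all genes called, with a median log2 difference of 0.31. Ctbp2, a corepressor of the family that Ikaros binds, was at 35.9, 22.1 and 26.2 CPM in SB animals and 4.87 to 5.23 CPM in controls (log2 difference 2.46, SE 0.26, edgeR adjusted p = 0.00621). It stayed called in 5 of the 6 fits that leave out 1 animal. Hdac1, the histone deacetylase of NuRD, differed by −0.58 (adjusted p = 0.0480) and was called in 2 of those 6 fits. Chd4, the NuRD remodeller, was at 852, 354 and 569 CPM in SB and 453 to 480 CPM in control animals and did not pass. Crbn, the ubiquitin ligase adaptor through which drugs degrade IKZF1 and IKZF3, had a log2 difference of −0.38 (adjusted p = 0.120). Counts called moved to 5 higher and 1 lower without SB animal 2, and to 0 of either kind without control 2.

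Of 17 genes known as Runx targets, 14 were tested, and 3 were called higher and 0 lower, beside 17.1% of all genes called. Their median log2 difference was 0.88, and that of all genes tested was 0.11. Spp1, osteopontin, was at 10.98, 12.3 and 5.04 CPM in SB animals and 0.713 to 0.961 CPM in controls (log2 difference 3.52, SE 0.47, edgeR adjusted p = 0.00972). Mpo, myeloperoxidase of granulocyte precursors, rose by 3.22 (SE 0.71) and Pf4, platelet factor 4, by 2.53 (SE 0.59). Mpo is also a promyelocyte marker and Pf4 a megakaryocyte marker in the lists above. Csf1r, the macrophage growth factor receptor, was at 2020 CPM in SB animal 2. SB animals 1 and 3 held 52.8 and 98.3 CPM, and controls 255 to 292 CPM. The 10 monocyte and macrophage markers summed to 12915 CPM in that animal, to 512 and 1271 CPM in the other SB animals and to 2627 to 3120 CPM in controls, with 0 called, and 4 called lower without SB animal 2. None of the Runx targets was called without any 1 control, and without SB animal 2 the count was 3 higher and 5 lower.

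Of 18 genes known as Ikaros targets, 14 were tested, and 2 were called higher and 7 lower, beside 17.1% of all genes called. Their median log2 difference was −1.74, and that of all genes tested was 0.11. Ebf1, the B lineage factor, was at 1.81 to 2.38 CPM in SB and 151 to 184 CPM in control animals (log2 difference −6.36, SE 0.21, edgeR adjusted p = 0.000332). Foxo1, a factor of early lymphocytes, was at 25.3 to 43.7 and 193 to 228 CPM (−2.68, SE 0.25, adjusted p = 0.00496). These were called in all 6 fits that leave out 1 animal. Hes1, a Notch target that Ikaros is known to repress, was lower too, with a log2 difference of −1.40 (SE 0.17). Ccnd3, cyclin D3, was higher by 1.44 (SE 0.23). The other called genes were Rag1, Syk, Blnk and Il7r, lower, and Cdk6, higher. Rag1 was near the floor, at most 0.0485 CPM in SB and 0.300 to 1.01 CPM in control animals. Of the 6 fits, Rag1 and Il7r were called in 1, Blnk and Cdk6 in 2 and Syk in 3. Ebf1, Rag1, Blnk, Syk and Il7r are also lymphocyte genes and stood beside the fall of B and T cell markers given above. Without any 1 control the counts were 0 higher and 2 lower, and without SB animal 3 they were 1 higher and 4 lower.

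**Figure D4:**
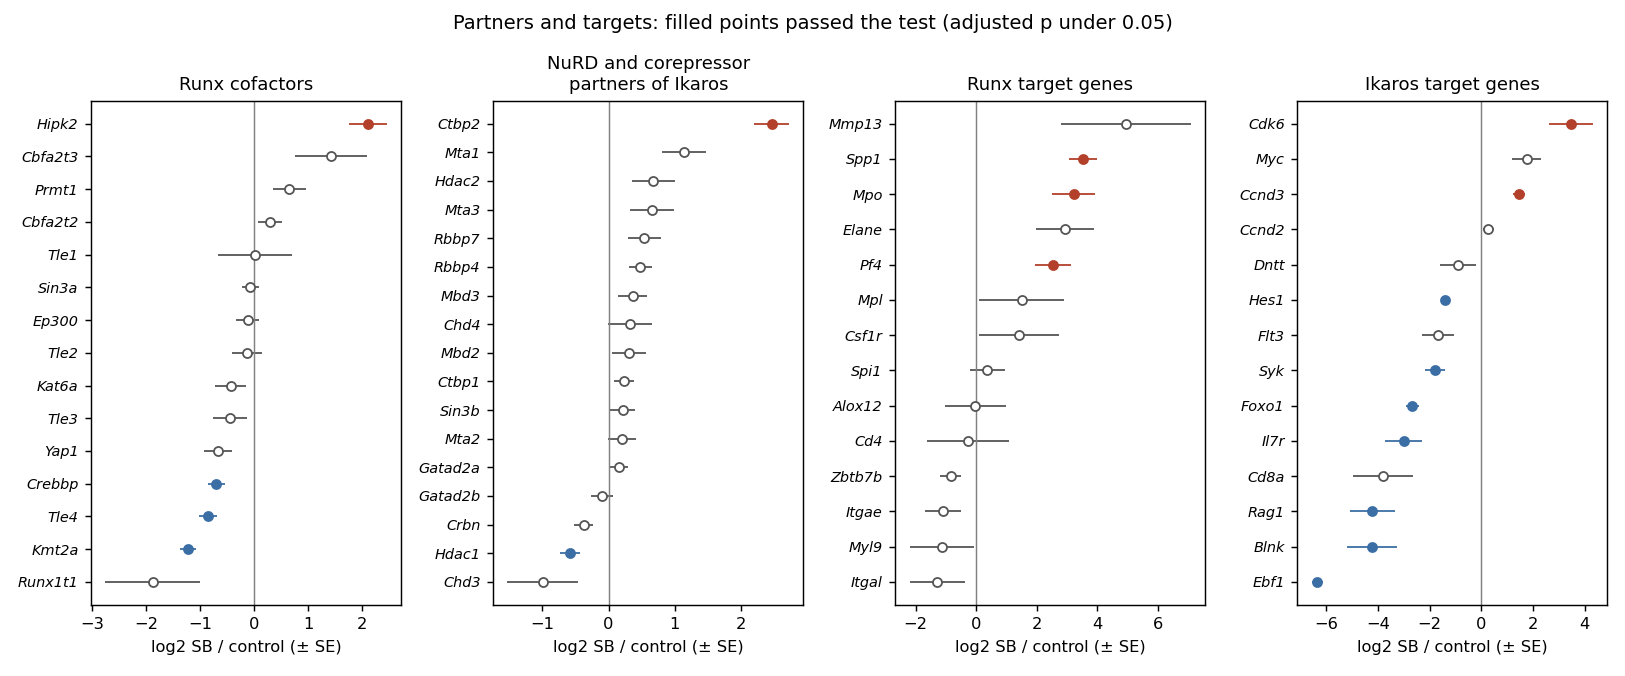
Log2 difference of SB from control animals with its SE (horizontal axis) for each tested gene of the cofactor and target lists, with filled points for genes called by edgeR at an adjusted p under 0.05 (red higher, blue lower) and open points for the others. The called Ikaros targets lie from −6.36 (Ebf1) to 3.48 (Cdk6), and the called partners of Ikaros proteins are Ctbp2 at 2.46 and Hdac1 at −0.58, with the open points of Mta1 at 1.14 and Chd3 at −0.99 farthest out on either side.

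For each member above 5 CPM the genes with the most similar profile were found among 11049 protein-coding genes, by the root-mean-square difference of centred log2 levels over the 12 libraries, which share animals. Ikzf3 was nearest to Mzb1, a plasma cell and B cell gene (0.213), Cd8b1 of cytotoxic T cells (0.218) and Blnk, a B cell adaptor (0.219), with a median over all genes of 2.72. Runx1 was nearest to Pomt2 (0.0616), Cnot9 (0.0685) and Ipo5 (0.0740), beside a median of 0.588. Runx3 was nearest to Lrrc1 (0.189), Elmo1 (0.225) and Tbxa2r (0.238), beside 1.27. Runx2 was nearest to Nkg7, Kif3c and Abi3 (0.202 each). Ikzf1 was nearest to Tigd2 (0.0980), Cstf2t and Rapgef1, Cbfb to Fam160b1, Tbc1d5 and Fyttd1, Ikzf2 to Ubqln2, Map2k5 and Jak3, and Ikzf5 to Atg101, Usf2 and Rab40c. No member was among the 3 nearest genes of another.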

How the data were processed

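Poly-A RNA of 12 spleen pieces from 6 mice was sequenced without strand, per the labels' protocols. The authors deposited read counts per Ensembl gene. They are whole numbers with unequal totals, so no normalisation was apparent. The submitters' processing notes name STAR 2.5.3a, limma, mm10 and GRCm38 with no role, and the counting mode is not given in the sources used here. Of 32121 genes, 32026 were matched to GENCODE mouse release 21 for symbols and exon lengths, and 95 were not. Groups came from the genotype labels, with 3 animals each, and pieces were paired by the animal in their titles.

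Counts of both pieces were summed per animal, and SB was compared with control using edgeR 4.0.16 in R 4.3.3 (TMM, filterByExpr, the robust option of the quasi-likelihood fit, two-sided tests adjusted by Benjamini-Hochberg over all genes tested). Pieces were tested on 12 libraries with the animal as a block, which the titles give, and animals by F tests with 1 coefficient per animal. SE came from the F statistic. Scripts were tested on simulated counts. Profiles used log2(CPM + 0.5). Alternatives were RLE, no TMM factors, no filter on low counts, DESeq2 1.42.0, limma voom 3.58.1, single pieces, and each animal left out.

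The 20 lists, that of the members included, were chosen with earlier results of these data known. Named were all 9 members, up to 4 called genes of a list by adjusted p, the 3 nearest profiles of a member above 5 CPM, and genes overlapping a member's exons; other genes were added as examples after their values were seen.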

Additional observations from a re-analysis of the deposited data

How the results depend on the processing

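The calls for Runx1, Ikzf1 and Ikzf3 rest on having all 3 controls: 3 members were called between genotypes, 0 without any 1 control, 3 without any 1 SB animal, and 7 with SB animal 3 alone against the controls (SB animals 1 and 2 both left out). The count of genes called, 2961, became 5631 with DESeq2 and 11680 with SB animal 3 alone, and ranged from 253 to 6174 with 1 animal left out; the cause was not tested. In the fit with SB animal 3 alone the SB group held 1 animal, so no spread among SB animals entered its counts. Those counts compare 1 spleen with the controls and do not speak for the genotype. Directions of Runx1, Ikzf1 and Ikzf3 did not change under any of 14 alternatives.

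Differences near 0 changed sign. For Cbfb between genotypes the log2 difference was −0.0038 with RLE and with DESeq2, −0.0096 without TMM factors, −0.0321 without the filter, −0.0483 in piece 2, −0.0033 with SB animal 3 alone, −0.0452 with limma voom, and −0.145 to 0.136 with 1 animal left out. Runx3 was at 0.131 in piece 2 and −1.66 to 0.48 with 1 animal left out. Ikzf5 was at 0.0425 in piece 2 and −0.246 to 0.0847 with 1 animal left out. Ikzf2 was at −0.0878 with SB animal 3 alone and −0.194 without SB animal 1.

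Between pieces, leaving out the replicate block, which here is the animal, gave 0 genes called in place of 335 and turned Runx3 to 0.0334. The counts were 533 genes and 1 member with RLE, 1861 and 2 without the filter, 1213 and 2 with DESeq2, and 0 to 503 genes and 0 to 2 members with 1 animal left out. With 1 animal left out, Ikzf2 ranged from −0.0717 to 0.116 and Ikzf5 from −0.0322 to 0.233; the sign turned for Ikzf2 without control 3 (0.0266) or SB animal 1, and for Ikzf5 without control 3 (−0.0287) or SB animal 3. For the difference between genotypes, RLE turned Runx1 to 0.0089 and Ikzf2 to 0.0082. Genes differing among controls numbered 726 without the filter and 232 with DESeq2, in place of 52. Without division by exon length, the share differences were 20.96 points for Ikzf1, 4.54 for Ikzf2 and −27.5 for Ikzf3, in place of 16.4, 2.28 and −20.7. With 3 animals per genotype and a biological coefficient of variation of 49.66%, a gene that was not called may still differ. Size alone did not decide a call: Hdac1 at −0.58 was called and Ikzf4 at 1.46 was not.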
